A study of Mus musculus with 8 samples.

Results

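The insulin-like growth factor (IGF) axis was examined in B16-F10 melanomas of mice on 2 diets. The 10 genes were the ligands Igf1 and Igf2, the receptors Igf1r and Igf2r, and the binding proteins Igfbp2 to Igfbp7. They were taken by gene symbol in the array annotation, and all 10 were measured among 24675 genes. B16-F10 is a mouse melanoma line, and its cells were injected under the skin of female C57BL/6J mice. No genetic change other than those of the line was stated. The sample labels gave no age, and the methods give 9 weeks as the age at implantation. The control group was fed a chow diet (CD), and the other a high fat high cholesterol diet (HFHCD), for 2 weeks before injection. At day 9 after injection, 4 whole tumors per diet were taken, and the RNA of each was hybridised to 1 Affymetrix MouseGene2.0ST array. Nothing stated that the 4 tumors of a group came from separate cages or experiments, so p-values measure only the spread between these tumors.

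IGF1 and IGF2 are secreted growth factors that act mainly through IGF1R, a receptor tyrosine kinase that signals to the PI3K, AKT and mTOR pathway. IGF2R has no kinase and carries IGF2 to the lysosome for breakdown. Most IGF outside cells is held by binding proteins, which extend its life in blood and limit, or locally release, it to the receptor. In tumors, the ligands are made largely by stromal cells and macrophages, and melanoma cells carry IGF1R. A whole tumor averages over all of these cells, so fewer cells of a type and less RNA per cell cannot be told apart.

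The stretch before the transcription start is shown for the receptors, which deviated together in 1 tumor, and for Igfbp3, which had the largest difference between diets. Each is 250 bases of RefSeq sequence on GRCm38.p6, on the strand of the gene, and capitals mark the GC box GGGCGG, the core of the Sp1 motif. The windows are chr7:67952007-67952256 on the + strand for Igf1r, chr17:12769707-12769956 on the - strand for Igf2r, and chr11:7213924-7214173 on the - strand for Igfbp3.
Igf1r: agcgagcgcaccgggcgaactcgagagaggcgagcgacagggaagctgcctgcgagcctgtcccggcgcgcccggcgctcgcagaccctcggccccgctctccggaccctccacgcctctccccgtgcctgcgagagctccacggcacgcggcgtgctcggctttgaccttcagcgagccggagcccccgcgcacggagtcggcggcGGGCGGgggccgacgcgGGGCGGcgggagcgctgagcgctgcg
Igf2r: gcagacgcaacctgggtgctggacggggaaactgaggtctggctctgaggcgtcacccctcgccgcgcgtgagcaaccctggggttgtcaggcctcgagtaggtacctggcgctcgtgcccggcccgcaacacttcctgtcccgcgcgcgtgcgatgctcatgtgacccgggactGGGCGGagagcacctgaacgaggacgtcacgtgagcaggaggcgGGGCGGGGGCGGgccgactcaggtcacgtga
Igfbp3: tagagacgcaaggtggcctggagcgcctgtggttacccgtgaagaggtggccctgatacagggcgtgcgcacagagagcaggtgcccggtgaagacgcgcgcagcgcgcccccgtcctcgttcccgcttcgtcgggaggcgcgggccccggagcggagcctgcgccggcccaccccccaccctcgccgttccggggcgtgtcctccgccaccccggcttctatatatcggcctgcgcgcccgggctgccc
The Igf1r window was 77.6% G and C, the Igfbp3 window 73.2% and the Igf2r window 69.2%, against a median of 52.4% over 32851 mouse windows of the same length. They held 42, 32 and 27 CG dinucleotides in that order, against a median of 6. The GC box, read on both strands as GGGCGG or CCGCCC, occurred 2 times for Igf1r, 3 times for Igf2r and 0 times for Igfbp3. It stood in a window of 5 of the 10 genes, or 6 of their 14 windows, and in 32.7% of all windows. A TATA box (TATAAA or TTTATA) was found for 2 genes, Igfbp4 and Igfbp6, or 2 of the 14 windows, and in 12.4% of all windows. The CCAAT box (CCAAT or ATTGG) was found for 3 genes, or 3 of the 14 windows, and in 33.8% of all windows. A match describes letters only, and no measurement of binding was made.

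None of the 10 IGF axis genes differed between diets when a limma fit over all genes was read at the study's own threshold, p under 0.05 without adjustment. Across all 24675 genes, 8.68% were called in either direction, 3.91% lower and 4.76% higher on HFHCD. In 0 of the 10 genes did the CD and HFHCD tumors form groups that did not overlap, against 5.20% of all genes. At an adjusted p under 0.05 limma called 0 of 24675 genes, 2141 of which were under 0.05 before adjustment, and the methods' t-test also called 0, with 1878 before adjustment. Fold changes are HFHCD minus CD on the log2 scale, and 6 of the 10 were below 0 and 4 above. Their median was -0.08, against 0.00 over all genes. The widths of the intervals given with each gene set what could be seen with 4 tumors a group.

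**Figure D1:**
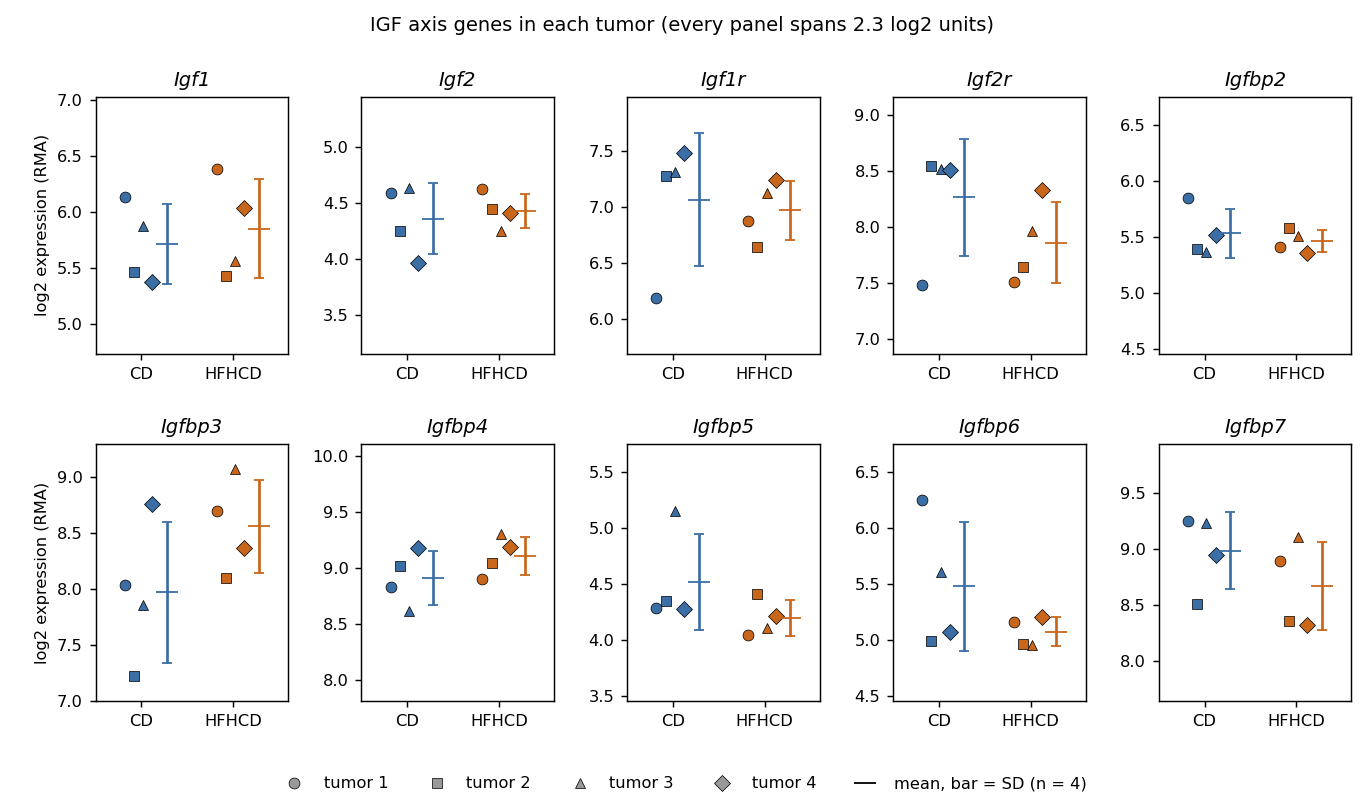
Log2 expression (vertical axis) of the 10 IGF axis genes in each CD (blue) and HFHCD (orange) tumor, with the mean and SD of 4 tumors beside the points. The groups overlap in all 10 panels, and CD 1 (blue circle) lies far below the other CD tumors for Igf1r (6.19) and Igf2r (7.48).

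The arrays were alike in level, but cell type marker values differed between them. Array medians ran from 5.04 to 5.21. CD 1 and CD 3 correlated less with the other arrays (mean r = 0.979 and 0.980) than the other 6 did (0.986 to 0.989). Fibroblast, skeletal muscle, monocyte and macrophage, and adipocyte markers were also at their highest list means in these tumors, whereas endothelial markers were highest in CD 4. Averaged over 18 fibroblast markers, CD 1 read 7.41 and CD 3 read 7.75, with 6.53 to 6.57 in the other CD tumors and 5.93 to 6.11 on HFHCD. Of these markers 13 were called lower and 0 higher on HFHCD, of 21 skeletal muscle markers 15 and 0, and of 22 measured monocyte and macrophage markers 12 and 0. For 9 measured adipocyte markers the counts were 2 and 0. Of 15 melanocyte markers 0 were lower and 3 higher, with list means of 10.75 to 10.90 on CD and 10.89 to 10.98 on HFHCD, so the tumors expressed the genes of their labelled cell type. The part of these differences in any IGF axis value was not tested.

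Both ligands were measured at similar levels on the 2 diets. Igf1, a growth factor made by liver and by stromal cells and macrophages in tissues, read 6.14, 5.46, 5.87 and 5.38 in CD tumors 1 to 4 and 6.39, 5.43, 5.56 and 6.04 in HFHCD tumors 1 to 4. One tumor of each diet stood above 6.1, HFHCD 1 being the highest of all 8, and the groups overlapped over most of their range. The mean was 5.71 ± 0.36 (SD, n = 4) on CD and 5.85 ± 0.44 on HFHCD, a log2 fold change of 0.14 (SE 0.24, 95% interval -0.40 to 0.68, adjusted p = 0.929 by limma). The difference was smaller than the SD of either group. Igf2, the imprinted growth factor of fetal life, read 4.59, 4.25, 4.63 and 3.97 on CD and 4.62, 4.44, 4.25 and 4.41 on HFHCD. Only 3 of the 8 values passed 4.49, the 40th percentile over all genes and arrays, so its signal was near the dim end of the arrays. The lowest and the highest tumor were both CD tumors, CD 4 and CD 3. The log2 fold change was 0.07 (SE 0.16, 95% interval -0.28 to 0.42, adjusted p = 0.951 by limma).

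The receptors gave lower means on HFHCD without passing the test, and how far apart the groups lay depended on single tumors. Igf1r, the signaling receptor, read 6.19, 7.28, 7.32 and 7.49 on CD and 6.88, 6.64, 7.13 and 7.24 on HFHCD. CD 1 was the lowest of all 8 tumors, while the other 3 CD tumors were the 3 highest. The log2 fold change was -0.10 (SE 0.27, 95% interval -0.70 to 0.51, adjusted p = 0.964 by limma). Igf2r, the receptor that clears IGF2, read 7.48, 8.55, 8.52 and 8.51 on CD and 7.51, 7.64, 7.96 and 8.33 on HFHCD. Again CD 1 was the lowest and the other 3 CD tumors the highest, with all 4 HFHCD tumors between them. The log2 fold change was -0.40 (SE 0.26, 95% interval -1.0 to 0.19, unadjusted p = 0.160 and adjusted p = 0.724 by limma). Without CD 1, the limma fit called both receptors lower on HFHCD, Igf1r by -0.39 (unadjusted p = 0.0270, adjusted p = 0.267) and Igf2r by -0.66 (unadjusted p = 0.00521, adjusted p = 0.180). In that fit 2 of the 10 genes were lower, and 7.16% of all genes were. Other tumors also moved Igf1r, to 0.0431 without CD 4, 0.0136 without HFHCD 2 and -0.0136 without CD 3, none of them called. Igf2r was lower with any 1 tumor left out, from -0.66 to -0.29. CD 1 also read low for Insr, the insulin receptor, with 5.96 against 7.24 to 7.36 in the other CD tumors, and for Mtor, the kinase of the growth pathway, with 7.07 against 8.01 to 8.17. Other related genes were low there too, such as Rptor, at 7.72 against 8.72 to 8.94, and Plagl1, at 9.72 against 10.56 to 10.93. The mean of 20 genes of the PI3K, AKT and mTOR arm was lowest in CD 1 of all 8 tumors, at 7.97. Rheb and Eif4ebp1 of that arm were instead highest in CD 1 among the CD tumors. Low values in CD 1 were thus not particular to the receptors. CD 1 was the lowest tumor for 17.1% and the highest for 25.8% of all genes.

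**Figure D2:**
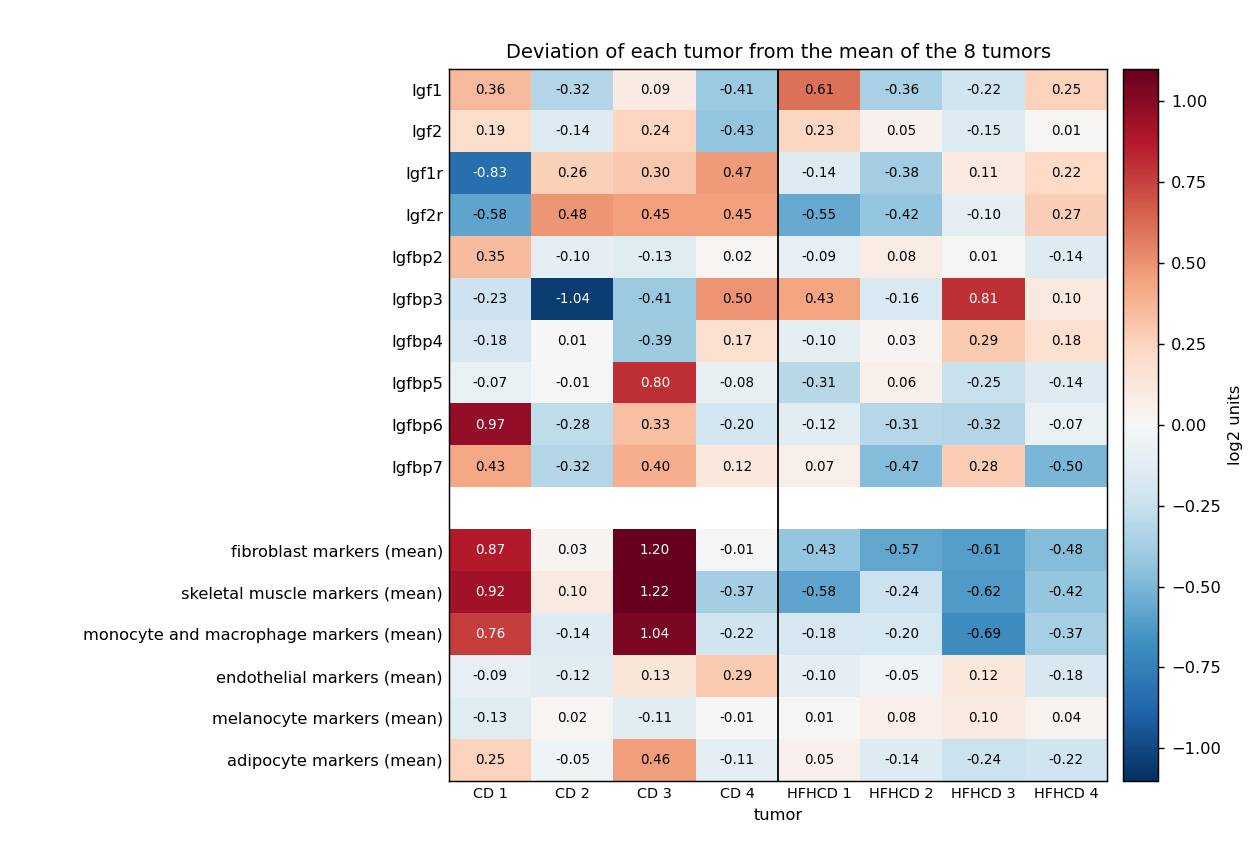
Deviation of each tumor (columns) from the mean of the 8 tumors in log2 units, for the 10 IGF axis genes and, below them, the means of 6 cell type marker lists. CD 1 is low for Igf1r (-0.83) and Igf2r (-0.58) and high for Igfbp6 (0.97), and CD 1 and CD 3 are high for the fibroblast (0.87 and 1.20), muscle and macrophage markers.

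Among binding proteins, Igfbp3 had the largest difference. It encodes the main IGF carrier of plasma, and it read 8.03, 7.22, 7.85 and 8.76 on CD and 8.70, 8.10, 9.07 and 8.37 on HFHCD. All 4 HFHCD tumors were above CD 1, CD 2 and CD 3, whereas CD 4 lay within the HFHCD range. The mean was 7.97 ± 0.63 (SD, n = 4) on CD and 8.56 ± 0.42 on HFHCD, a log2 fold change of 0.59, or 1.51-fold (SE 0.31, 95% interval -0.11 to 1.29, unadjusted p = 0.0905 and adjusted p = 0.651 by limma). Without CD 4 it was called by limma, at 0.85 (unadjusted p = 0.0116, adjusted p = 0.414), as the 1 higher gene of the 10, when 4.70% of all genes were higher. Without CD 2, the lowest tumor, it was 0.34 (unadjusted p = 0.248 by limma), and without HFHCD 3, the highest, 0.42 (unadjusted p = 0.232 by limma). Igfbp4, whose product holds IGFs until the protease PAPP-A cuts it, read 8.83, 9.02, 8.62 and 9.18 on CD and 8.91, 9.04, 9.30 and 9.19 on HFHCD. Most of its values on both diets lay within a narrow shared range, with CD 3 the lowest and HFHCD 3 the highest. The groups differed by 0.20 (log2 fold change, SE 0.14, 95% interval -0.11 to 0.51, adjusted p = 0.754 by limma), and by 0.10 without CD 3.

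Igfbp2 and Igfbp5 overlapped broadly between diets. The product of Igfbp2 binds IGFs and, through an RGD motif, integrins, and the gene read 5.85, 5.40, 5.37 and 5.52 on CD and 5.41, 5.58, 5.51 and 5.36 on HFHCD. CD 1 was the highest tumor, and the other 7 overlapped. The means differed by -0.07 (log2 fold change, SE 0.12, 95% interval -0.34 to 0.20, adjusted p = 0.932 by limma). Igfbp5, a binding protein that is also held in extracellular matrix, read 4.28, 4.35, 5.15 and 4.27 on CD and 4.05, 4.41, 4.11 and 4.21 on HFHCD. Only CD 3 passed 4.49, and the other 7 tumors were dim and overlapped. The log2 fold change of -0.32 (SE 0.20, 95% interval -0.76 to 0.12, adjusted p = 0.707 by limma) became -0.11 without CD 3.

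Igfbp6 and Igfbp7 had lower means on HFHCD and their highest values in CD 1 and CD 3, the tumors with the highest fibroblast, muscle and macrophage markers. Igfbp6, which prefers IGF2 to IGF1, read 6.25, 4.99, 5.61 and 5.07 on CD and 5.16, 4.96, 4.96 and 5.21 on HFHCD. CD 1 and CD 3 were the 2 highest tumors, and CD 2 and CD 4 lay within the range of HFHCD. The log2 fold change was -0.41 (SE 0.25, 95% interval -0.97 to 0.15, adjusted p = 0.706 by limma), and it was -0.15 without CD 1 and 0.04 with both CD 1 and CD 3 left out. Without CD 2, a tumor at the low end, it was called lower at -0.57 (unadjusted p = 0.0443, adjusted p = 0.572 by limma). In that fit it was the 1 lower gene of the 10, and 1057 of all 24675 genes were lower. Igfbp7, a matrix protein with weak affinity for IGFs that is made by endothelial and stromal cells, read 9.26, 8.51, 9.23 and 8.95 on CD and 8.90, 8.36, 9.11 and 8.33 on HFHCD. CD 1 and CD 3 were again the 2 highest. HFHCD 3 came next, and its fibroblast, muscle and macrophage list means (5.93, 5.01 and 5.96) were the lowest of all tumors. The part of cell content in these values was not tested. HFHCD minus CD came to -0.31 (log2 fold change, SE 0.22, 95% interval -0.81 to 0.19, adjusted p = 0.758 by limma), and -0.06 without CD 1 and CD 3. Of 15 endothelial markers 1 was called lower and 0 higher, with list means of 6.18 to 6.58 on CD and 6.12 to 6.41 on HFHCD.

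**Figure D3:**
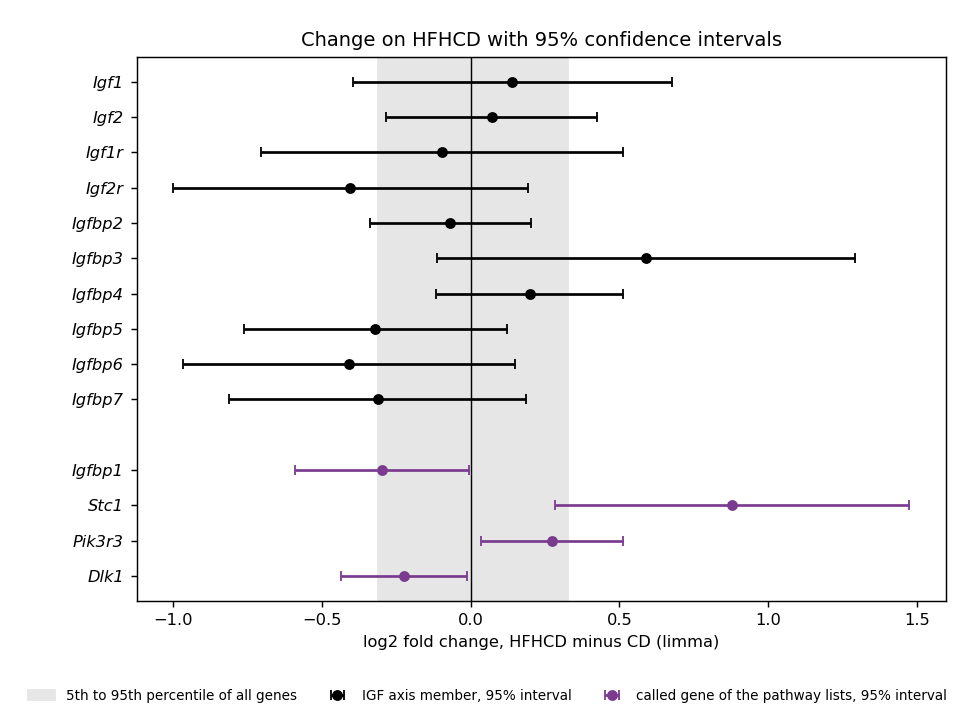
Log2 fold change, HFHCD minus CD (horizontal axis), with 95% confidence intervals from limma for the 10 IGF axis genes (black) and for the 4 called genes of the related lists (purple). All 10 black intervals cross 0, and the shaded band runs from the 5th percentile (-0.31) to the 95th percentile (0.33) of all genes.

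The SD was larger among CD than among HFHCD tumors for 8 of the 10 genes, the exceptions being Igf1 and Igfbp7, and likewise for 69.9% of all genes. CD 1 was the highest tumor for Igfbp2, Igfbp6 and Igfbp7 and the lowest for Igf1r and Igf2r. CD 3 was the highest for Igf2 and Igfbp5 and the lowest for Igfbp4. For no gene was HFHCD 2 at either end.

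Differences between 2 genes within each tumor were compared for 4 pairs, by an exact two-sided permutation test whose smallest p is 0.0286 with 4 tumors against 4. The log2 difference Igf1r minus Igf2r was -1.29, -1.27, -1.20 and -1.03 in CD tumors 1 to 4 and -0.63, -1.0, -0.84 and -1.09 in HFHCD tumors 1 to 4. CD 1, low for both receptors, lay with the other CD tumors on this measure, and the groups overlapped only through CD 4 and HFHCD 4. The difference was 0.31 higher on HFHCD (exact permutation p = 0.0571, adjusted over the 4 pairs 0.171). In the other 3 pairs 1 gene was dim, passing 4.49 in 1 array (Igfbp1 and Igfbp5) or in 3 (Igf2), so their differences are listed and not interpreted. Igfbp3 minus Igfbp1, a pair of neighbours on chromosome 11, was 3.41, 3.0, 3.69 and 4.37 on CD and 4.38, 4.19, 5.09 and 4.35 on HFHCD. The groups differed by 0.89 in this pair (exact permutation p = 0.0857, adjusted 0.171). Igf1 minus Igf2 differed by 0.07 (exact permutation p = 0.771, adjusted 0.771) and Igfbp5 minus Igfbp2, neighbours on chromosome 1, by -0.25 (exact permutation p = 0.571, adjusted 0.762). None of the 4 pairs passed the test.

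Around the axis, 54 of 58 genes in 4 related lists were analysed, and 4 were not analysed here. Of the 54, 2 were called lower and 2 higher on HFHCD, against 3.91% lower and 4.76% higher of all genes. The groups did not overlap for 2 of the 54, against 5.20% of all genes. The median log2 fold change was -0.04. Leaving out CD 1 raised the count of lower genes to 11 of 54, when 7.16% of all genes were lower. Leaving out HFHCD 2 or HFHCD 3 took the count to 0. Over all 24675 genes the lower count also fell, from 966 to 672 without HFHCD 2 and to 797 without HFHCD 3. Of 11 genes that set IGF availability or are related receptors, 1 was higher and 1 lower. Stc1, which encodes stanniocalcin, a secreted inhibitor of PAPP-A, read 7.66, 7.39, 7.27 and 8.55 on CD and 8.66, 8.33, 8.94 and 8.46 on HFHCD. As for Igfbp3, CD 4 alone lay within the HFHCD range. Stc1 rose 1.84-fold, by 0.88 on the log2 scale (SE 0.26, unadjusted p = 0.00847, adjusted p = 0.462 by limma). Igfbp1, the binding protein that insulin represses in liver, read 4.62, 4.22, 4.17 and 4.39 on CD and 4.31, 3.91, 3.97 and 4.02 on HFHCD. It was dim, passing 4.49 in 1 array, with HFHCD 1 within the CD range. Igfbp1 fell by 0.30 on the log2 scale (SE 0.13, unadjusted p = 0.0476, adjusted p = 0.568 by limma). That call was lost without CD 1, CD 4, HFHCD 2, HFHCD 3 or HFHCD 4, with unadjusted p up to 0.122 by limma. With all tumors kept, the methods' t-test did not call Igfbp1 either (unadjusted p = 0.0716). Pappa, the protease itself, differed by -0.12 and Insr by 0.14, and neither passed the test.

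Of 13 adaptors and signal limiters of the receptor, 0 were called, with a median of -0.11. The adaptors Irs1 (-0.11) and Irs2 (-0.26) were among them. In the PI3K, AKT and mTOR arm, 1 of 20 genes measured was called, in the higher direction. It was Pik3r3, a regulatory subunit of PI3K that docks on IGF1R, which read 9.74, 9.99, 9.79 and 10.03 on CD and 10.05, 10.17, 10.34 and 10.08 on HFHCD. All HFHCD tumors were above all CD tumors, by a narrow margin. Pik3r3 rose by 0.27 on the log2 scale (SE 0.11, unadjusted p = 0.0284, adjusted p = 0.529 by limma). It was not called without CD 1, CD 3, HFHCD 2 or HFHCD 3, with unadjusted p up to 0.0824 by limma. The kinases Akt1 (-0.07) and Mtor (-0.26) did not pass the test. Of 10 IGF2 mRNA-binding proteins and imprinted growth genes, 1 was called lower. Dlk1, an imprinted membrane protein of the Notch ligand type, read 5.56, 5.43, 5.59 and 5.73 on CD and 5.42, 5.24, 5.31 and 5.43 on HFHCD. Its groups did not overlap, though CD 2 and HFHCD 4 nearly touched. Dlk1 fell by 0.23 on the log2 scale (SE 0.09, unadjusted p = 0.0395, adjusted p = 0.551 by limma). Leaving out CD 3, CD 4, HFHCD 2 or HFHCD 3 ended this call, with unadjusted p up to 0.107 by limma. H19, the imprinted RNA next to Igf2, differed by -0.43 with values near the dim end (unadjusted p = 0.0583 by limma), and Igf2bp1, which binds Igf2 mRNA, by -0.21. Neither passed the test.

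**Figure D4:**
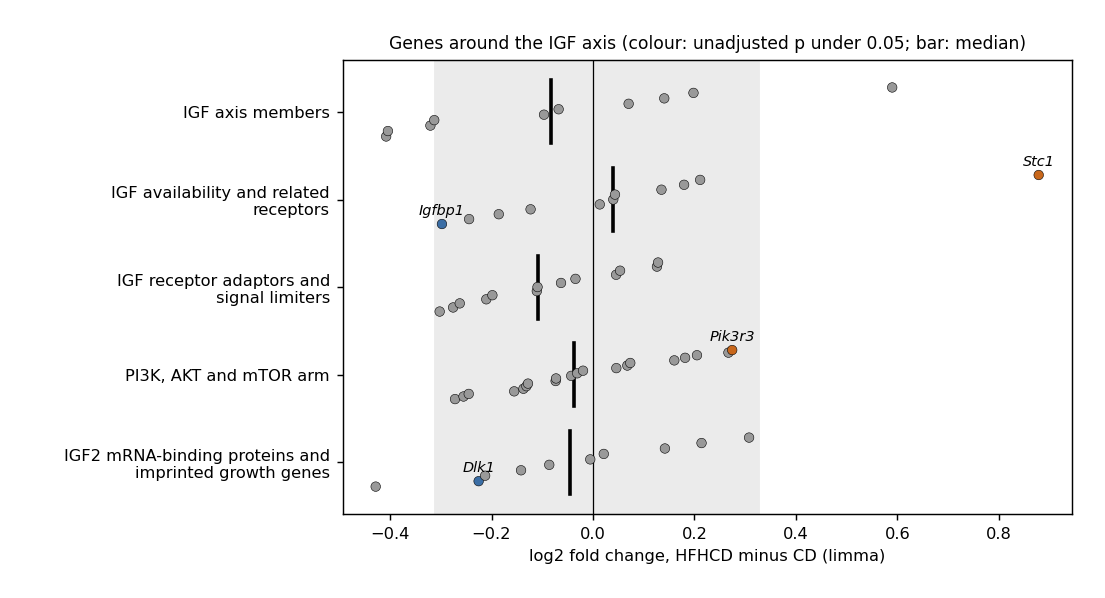
Log2 fold change, HFHCD minus CD (horizontal axis), of the 10 IGF axis genes and of 54 related genes in 4 lists, one point per gene and a bar at each median, with genes called higher in orange and lower in blue. Stc1 (0.88) and Pik3r3 (0.27) are higher, Igfbp1 (-0.30) and Dlk1 (-0.23) lower, and no gene of the axis itself is called; the band is the 5th to 95th percentile of all genes.

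**Figure D5:**
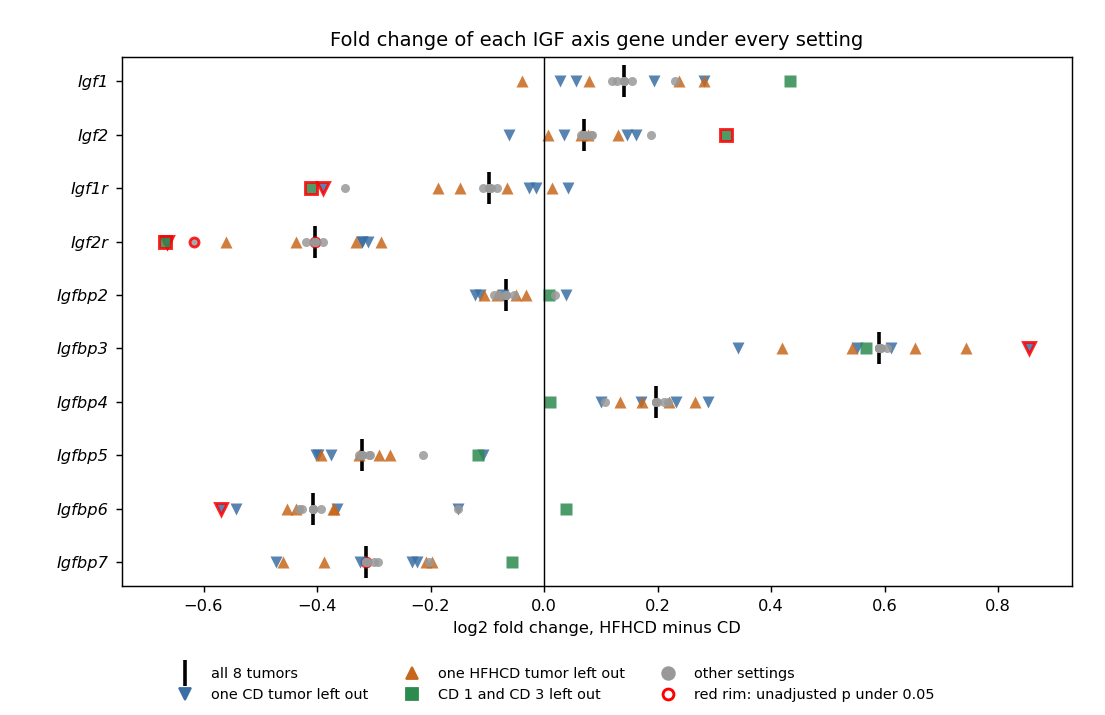
Log2 fold change (horizontal axis) of each IGF axis gene with all 8 tumors (black bar) and under each other setting, with a red rim where the unadjusted p was under 0.05. Leaving out CD 1 takes Igf2r to -0.66 and Igf1r to -0.39, and leaving out CD 4 takes Igfbp3 to 0.85.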

How the data were processed

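Total RNA of 8 tumors was measured, 4 per diet. The authors deposited log2 values, and the tools listed in the submitters' processing notes are RMA and Affymetrix Expression Console. No versions of them are stated. RMA subtracts background, equalises arrays and summarises probes, so a shift of a whole array is removed. Titles that write HFD were read as HFHCD, the diet named by the other labels and the methods. Of 25429 probe sets, 24675 had 1 gene symbol in the platform annotation and were tested, and 754 were not named.

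HFHCD was compared with CD in limma 3.58.1 (lmFit and eBayes, R 4.3.3), with no covariate or filter. A gene was called where limma's p, without adjustment, was below 0.05. Benjamini-Hochberg adjustment ran over all 24675 genes. Intervals are 95% intervals of that fit. Exact permutation tests used scipy 1.17.1 in Python 3.11.15, and plots matplotlib 3.10.9. The limma script was tested on simulated data. All 10 axis genes were named, with each called gene of 4 related lists and up to 2 others per list. Rptor, Plagl1, Rheb and Eif4ebp1 were named beyond this rule, for their values in CD 1. No axis gene was called, so no genes of like pattern were sought. The axis genes, lists and alternatives were chosen with earlier results of these data known.

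The alternatives covered the samples (each tumor left out, CD 1 and CD 3 left out together, a block for replicate number), the test (the t-test of the methods, array weights, a trended robust prior), the scaling (cyclic loess, quantile, or centring on the median) and a filter keeping genes over the 40th percentile (4.49) in at least 4 arrays. The number of arrays limits the precision.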

Additional observations from a re-analysis of the deposited data

Results flagged for a closer look

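Dixon's criterion was applied to 44 groups of 4 tumors, over the 10 axis genes and 12 named genes of the related lists. Rptor, Plagl1, Rheb and Eif4ebp1 were not among these 12. By this criterion, which chance meets in about 5% of groups, 5 groups held a tumor far from the other 3. Tumor CD 1 was the lowest CD tumor for 4 of them, at 6.19 for Igf1r (others 7.28 to 7.49), 7.48 for Igf2r (others 8.51 to 8.55), 5.96 for Insr (others 7.24 to 7.36) and 7.07 for Mtor (others 8.01 to 8.17). Tumor CD 3 was the highest CD tumor for Igfbp5, at 5.15 against 4.27 to 4.35. These groups share tumors, so the 5 are not independent of each other. The share of all genes that meet the criterion was not computed, so the 5 cannot be read as particular to these genes. CD 1 and CD 3 also had the lowest array weights, 0.263 and 0.564.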

How the results depend on the processing

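Igf2r, Igfbp3, Igfbp4, Igfbp5 and Igfbp7 kept their direction under every alternative in which they were tested; Igf2 and Igfbp5 were not tested after the filter on dim genes. Igfbp4 came close to 0, at 0.0099, without CD 1 and CD 3. Leaving out 1 tumor at a time gave 0 to 2 axis genes called lower and 0 to 1 called higher, 0 to 11 and 1 to 2 of the related genes, and 632 to 1767 and 839 to 1942 of all genes, and CD 1 left out gave the 11, the 1767 and the 1942. Without CD 1 and CD 3, 2 axis genes were lower (Igf1r -0.41, Igf2r -0.67) and 1 higher (Igf2 0.32), with 9 related genes lower and 1776 genes lower and 1810 higher in all. Array weights gave 1 axis gene lower (Igf2r -0.62), 7 related genes lower and 3 higher, and 1582 lower and 1928 higher in all. Related genes called lower numbered 1 by the methods' t-test, 4 after quantile normalization and 0 after the dim filter, which left 635 lower over all genes, with fewer genes tested; 1 related gene was higher after median centring.

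Several signs turned. With 1 tumor left out the log2 fold change ran from -0.038 to 0.28 for Igf1, -0.0613 to 0.16 for Igf2, -0.39 to 0.0431 for Igf1r and -0.12 to 0.0379 for Igfbp2, and the change of Igf1 minus Igf2 from -0.0444 to 0.22 and of Igfbp5 minus Igfbp2 from -0.44 to 0.0153. Without CD 1 and CD 3, Igfbp2 was at 0.0087 and Igfbp6 at 0.0389, and Igfbp2 was at 0.0186 with array weights. Igfbp1, Pik3r3 and Dlk1 each lost their call in 7 or 8 alternatives, and Stc1 in 1, without CD 1 and CD 3 (0.63, unadjusted p = 0.0663 by limma). Some of these alternatives kept all tumors. They were the methods' t-test for Igfbp1, and array weights, median centring and the replicate block for Pik3r3. For Dlk1 they were the trended robust prior, median centring and the filter on dim genes. The cause of these changes was not tested. Over all alternatives the smallest adjusted p of an axis gene was 0.180 by limma.

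Deviations of same-numbered tumors correlated at 0.27, -0.03, -0.26 and 0.05, within the range of differently numbered tumors, -0.33 to 0.36. These values gave no sign that replicate numbers mark pairs, but so few cannot exclude a shared cage or batch. With the replicate number as a block, 2 axis genes were called lower, Igf2r (-0.40, unadjusted p = 0.0464) and Igfbp7 (-0.31, unadjusted p = 0.0360), and 1 related gene higher, by limma. In that fit 981 of all 24675 genes, or 3.98%, were lower.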
